A study of Mus musculus with 4 samples.

Results

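The 10 genes described here encode the enzymes that break down stored triglyceride and the proteins that sit on lipid droplets: Pnpla2, Lipe, Mgll, Abhd5, G0s2, Plin1, Plin2, Plin4, Cidec and Aqp7. They were chosen by gene symbol with earlier results of these data known, and all 10 were found among the 53715 genes counted. White adipocytes keep triglyceride in a large droplet and release it as fatty acids and glycerol when fasting or adrenergic signals call for fuel. Adipose triglyceride lipase (Pnpla2), hormone-sensitive lipase (Lipe) and monoglyceride lipase (Mgll) remove the fatty acids in turn. The co-activator CGI-58 (Abhd5) switches adipose triglyceride lipase on and G0S2 inhibits it, perilipins coat the droplet, CIDEC lets droplets fuse and grow, and aquaporin 7 lets glycerol leave the cell. In the GENCODE M21 annotation of GRCm38 the genes lie, with their strand, as follows: Pnpla2 at chr7:141455198-141460743 (plus), Lipe at chr7:25379527-25398710 (minus), Mgll at chr6:88724412-88828360 (plus), Abhd5 at chr9:122351608-122381524 (plus), G0s2 at chr1:193272161-193273217 (minus). The droplet proteins and the channel lie as follows: Plin1 at chr7:79720218-79732903 (minus), Plin2 at chr4:86648386-86670060 (minus), Plin4 at chr17:56100591-56109803 (minus), Cidec at chr6:113424634-113435760 (minus) and Aqp7 at chr4:41033074-41048139 (minus).

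The values come from single-nucleus RNA-seq of inguinal white adipose tissue, a subcutaneous depot, taken from C57BL/6N mice at 6 months. There are 4 libraries, of which 2 carry the label PTRF knockout and 2 the label WT. PTRF, now called cavin-1, is a coat protein of caveolae encoded by Cavin1, and the comparison asks how its loss goes with gene activity in fat. The series title refers to a distal enhancer of the gene, the labels give no treatment, allele, promoter or Cre driver, and neither the deleted sequence nor whether a library pools several mice is given in the sources used here.

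Cavin1 goes against the labels. Over all nuclei, in UMIs of the gene per 1000000 UMIs of the library (CPM), its level was 53.9 and 50.5 CPM in the libraries labelled knockout 1 and 2, against 1.81 and 1.04 CPM in those labelled WT 1 and 2 (log2 difference 5.08, SE 0.54, adjusted p = 1.05e-16 by edgeR). The deposited files are also named for the opposite genotype. Groups are kept here as labelled, and "higher" always means higher in the libraries labelled knockout, which are the libraries rich in Cavin1. The files held 12454 and 16141 barcodes labelled knockout, and 15928 and 6827 labelled WT, with 8855578 to 35134206 UMIs per library, 53 to 150 barcodes shared between any 2 libraries, and medians per kept nucleus of 844.5 and 1401 UMIs in the libraries labelled knockout, against 1022 and 933.5 UMIs in those labelled WT. Labelled knockout 2 was the deepest library. The doublet caller marked almost no nuclei, so doublets remain.

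The bases upstream of the transcription start are shown for 4 members that stood apart in how they were distributed over nuclei. Cidec and Plin1 followed adipocyte-like nuclei closely, whereas Plin2 and Mgll were as high or higher in other nuclei. Each run is the 250 bases before a RefSeq start on GRCm38.p6, 5′ to 3′ on the gene's strand: Cidec at chr6:113435761-113436010 and Plin1 at chr7:79732777-79733026 on the minus strand, Plin2 at chr4:86670060-86670309 on the minus strand, and Mgll at chr6:88724162-88724411 on the plus strand. Capitals mark any match, on either strand, to GGGCGG (the GC box), AGGTCA (the core of nuclear receptor sites) or CACGTG (an E-box).
Cidec: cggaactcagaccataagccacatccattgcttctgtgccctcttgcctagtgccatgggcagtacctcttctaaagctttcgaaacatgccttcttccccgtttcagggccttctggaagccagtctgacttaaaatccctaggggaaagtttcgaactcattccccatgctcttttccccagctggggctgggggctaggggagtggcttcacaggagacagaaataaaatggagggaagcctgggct
Plin1: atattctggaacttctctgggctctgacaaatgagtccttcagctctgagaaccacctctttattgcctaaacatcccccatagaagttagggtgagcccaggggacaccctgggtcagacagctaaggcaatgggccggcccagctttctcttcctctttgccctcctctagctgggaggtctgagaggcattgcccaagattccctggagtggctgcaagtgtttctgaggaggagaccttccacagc
Plin2: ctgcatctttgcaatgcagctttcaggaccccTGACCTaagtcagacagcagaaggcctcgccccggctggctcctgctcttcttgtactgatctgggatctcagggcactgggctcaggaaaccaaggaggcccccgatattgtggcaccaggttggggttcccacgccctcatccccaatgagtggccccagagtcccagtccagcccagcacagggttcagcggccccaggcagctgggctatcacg
Mgll: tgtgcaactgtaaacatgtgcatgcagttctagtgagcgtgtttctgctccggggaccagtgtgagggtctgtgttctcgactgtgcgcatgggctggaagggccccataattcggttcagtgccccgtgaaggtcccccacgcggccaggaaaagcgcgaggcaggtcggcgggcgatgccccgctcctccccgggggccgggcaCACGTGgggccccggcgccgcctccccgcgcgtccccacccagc
The Plin2 window held AGGTCA on the strand opposite to the printed letters, where it reads TGACCT, and the Mgll window held a CACGTG, while neither the Cidec nor the Plin1 window held any of the 3 motifs. Among the 14 windows of the members, some of which have several starts, GGGCGG occurred in those of 5 genes (G0s2, Mgll, Lipe, Pnpla2 and Abhd5), AGGTCA in those of 3 (Aqp7, Plin2 and Abhd5) and CACGTG in those of 2 (Mgll and Lipe). Of all 32851 RefSeq windows of this length, 32.7% held GGGCGG, 14.0% held AGGTCA and 6.02% held CACGTG. The letters TATAAA, found in 12.4% of all windows, occurred in 0 windows of the members. These matches describe letters only.

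Adipocyte-like nuclei were the 6395 nuclei of a cluster that had 10 of the 12 adipocyte markers among its 100 leading genes, and the members took no part in the clustering. They numbered 1216 and 2051 in the libraries labelled knockout 1 and 2, against 2461 and 667 in those labelled WT 1 and 2. Levels below are again in CPM, here per UMI of these nuclei in that library, and log2 differences are labelled knockout minus labelled WT with n = 2 libraries per group.

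Among the lipases, Mgll stood apart in adipocyte-like nuclei. Mgll had 704 and 533 CPM in the libraries labelled knockout, against 272 and 237 in those labelled WT. Both libraries labelled knockout lay above both labelled WT, a log2 difference of 1.23 (SE 0.41), but the gene did not pass the test across all genes (adjusted p = 0.252, edgeR). Lipe, the lipase controlled by protein kinase A, had 1102 and 1293 CPM labelled knockout, against 1126 and 1102 labelled WT. Its groups overlapped, and the log2 difference of 0.09 (SE 0.45) was far smaller than its error. Pnpla2, the lipase that takes the first fatty acid, had 78.9 and 124 CPM labelled knockout, against 151 and 73.3 labelled WT. The libraries labelled WT held both its highest and its lowest value, and the log2 difference was -0.17 (SE 0.38).

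The pair that tunes adipose triglyceride lipase had differences of opposite sign. G0s2, the inhibitor, had 193 and 342 CPM in the libraries labelled knockout, against 47.7 and 173 in those labelled WT. The groups did not overlap, with labelled WT 2 close to labelled knockout 1, and the log2 difference was 1.34 (SE 0.48, adjusted p = 0.542). Abhd5, the co-activator, had 65.0 and 116 CPM labelled knockout, against 187 and 110 labelled WT. Its groups overlapped and its log2 difference was -0.72 (SE 0.38, adjusted p = 0.9998). Without labelled knockout 1, G0s2 was called (adjusted p = 0.0034), and its log2 difference ranged over the 4 fits that leave out a library between 0.68 without labelled WT 1 and 2.45 without labelled WT 2.

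Of the droplet coats, Plin1 had non-overlapping groups. Plin1, the perilipin that gates lipase access in adipocytes, had 632 and 1094 CPM in the libraries labelled knockout, against 395 and 421 in those labelled WT. The log2 difference was 1.09 (SE 0.43, adjusted p = 0.601), and it was 0.49 without labelled knockout 2. Plin2, the perilipin found in most cell types, had 82.1 and 118 CPM labelled knockout, against 84.6 and 84.7 labelled WT. Plin4, an adipocyte perilipin of small droplets, had 263 and 448 CPM labelled knockout, against 325 and 311 labelled WT. For both, labelled knockout 1 was the lowest library and labelled knockout 2 the highest, with log2 differences of 0.24 (SE 0.36) for Plin2 and 0.16 (SE 0.40) for Plin4.

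Cidec and Aqp7 did not pass either. Cidec, which drives droplet fusion, had 1971 and 3106 CPM in the libraries labelled knockout, against 1450 and 2339 in those labelled WT, with a log2 difference of 0.43 (SE 0.50). Its groups overlapped, because labelled WT 2 lay above labelled knockout 1. Aqp7, the glycerol channel, had 31.4 and 40.9 CPM labelled knockout, against 24.4 and 26.3 labelled WT. These groups did not overlap, at a log2 difference of 0.52 (SE 0.40) that was little larger than its error.

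**Figure D1:**
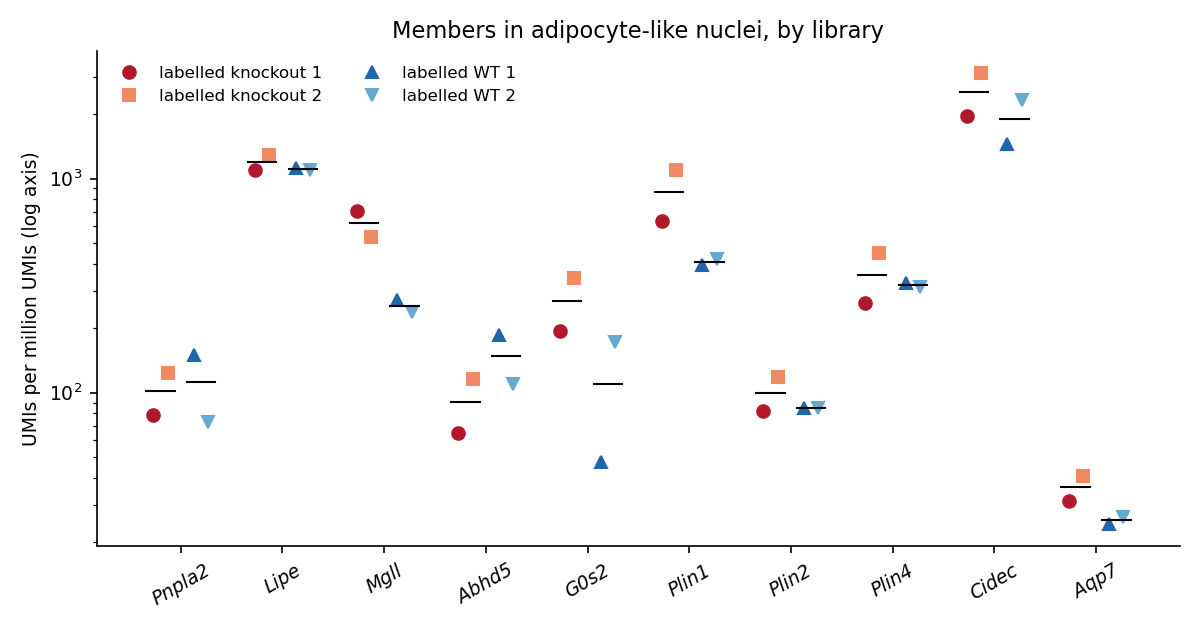
Level of each member in adipocyte-like nuclei, in CPM on a log axis, with 1 point per library (labelled knockout in reds, labelled WT in blues) and a black line at each group's mean. Mgll, Plin1, G0s2 and Aqp7 have both red points above both blue points, and the red square of labelled knockout 2 is the highest point for 7 of the 10 members.

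In adipocyte-like nuclei edgeR called 0 of the 10 members, where 0.541% of all 16459 genes tested were called (89 genes). DESeq2 also called 0 members, and 3 members (Mgll, G0s2 and Plin1) had an unadjusted p under 0.05, as did 4.48% of all genes. The groups did not overlap for 4 members, all higher, where 15.5% of all genes had non-overlapping groups that were higher and 12.1% lower. The log2 difference was above 0 for 8 of 10 members, against 51.7% of all genes, and its median was 0.34 over the members and 0.016 over all genes. Labelled knockout 2 held the highest level of 7 members and the lowest of 0, and labelled knockout 1 the highest of 1 and the lowest of 4. Labelled WT 1 held the highest of 2 and the lowest of 4, and labelled WT 2 the highest of 0 and the lowest of 2. Labelled knockout 2 also had the deepest adipocyte-like nuclei, with a median of 4203 UMIs against 1622 to 1941 UMIs in the other 3 libraries. Where nuclei were taken by a gate of at least 3 adipocyte markers in place of the cluster, the log2 difference changed sign for Lipe (-0.29), Plin2 (-0.34), Plin4 (-0.23) and Cidec (-0.0099). The gate took 3410 and 8422 nuclei labelled knockout, against 4643 and 1212 labelled WT, more than the cluster in each library. The median depth of labelled knockout 2 was 1315 UMIs there. Gate and cluster thus hold different sets of nuclei, and the share of adipocytes among the gated nuclei was not tested.

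**Figure D2:**
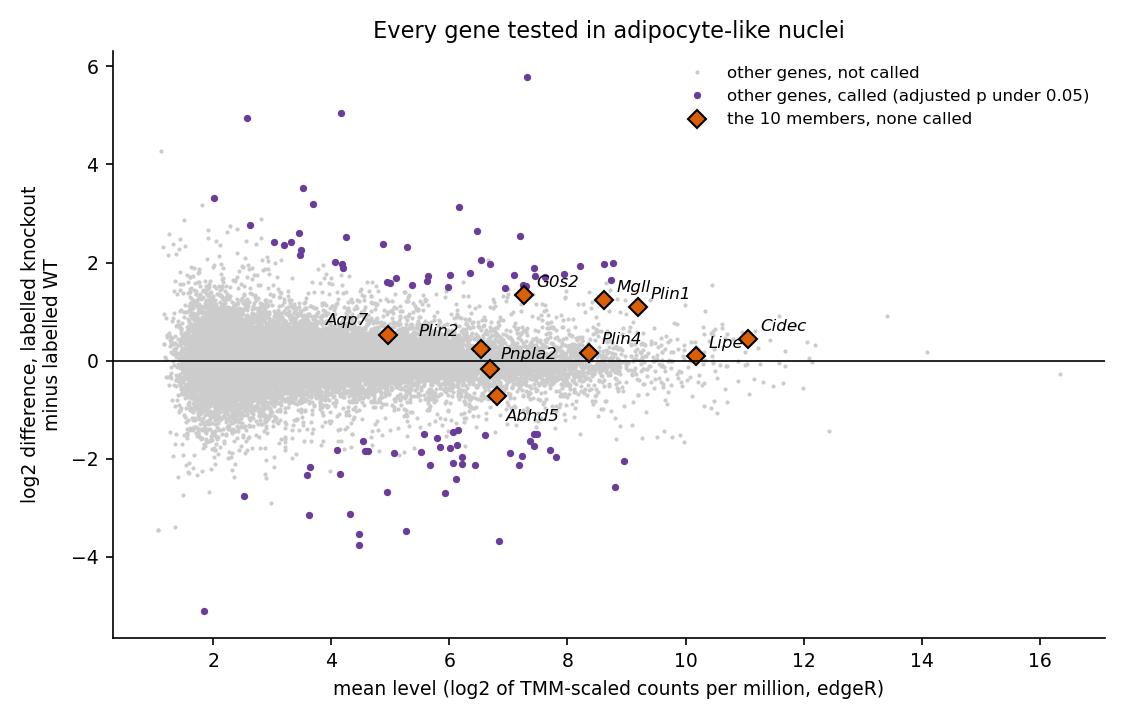
Log2 difference (labelled knockout minus labelled WT) against mean level on the log2 scale for the 16459 genes tested in adipocyte-like nuclei, with called genes in purple and the members as orange diamonds. No member lies among the called genes, and G0s2, Mgll and Plin1 lie highest among the members.

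Marker sums of several cell types were read beside these values. The 12 adipocyte markers together gave 31727 and 54765 CPM in adipocyte-like nuclei labelled knockout, against 36912 and 28624 labelled WT, with 9 of 12 above 0 on the log2 scale and 0 called. Adipoq, the adiponectin gene and an adipocyte marker, had 272 and 525 CPM labelled knockout, against 197 and 132 labelled WT. Markers of luminal mammary epithelium gave 1282 and 2262 CPM labelled knockout, against 1208 and 501 labelled WT (7 of 8 tested above 0), and those of plasma cells 19.8 and 64.7 against 7.07 and 9.26 (2 of 3 tested called higher). The 5 brown adipocyte markers gave 333 and 141 CPM labelled knockout, against 214 and 390 labelled WT (2 of 5 above 0). The 12 progenitor markers gave 802 and 1313 CPM labelled knockout, against 860 and 1021 labelled WT (10 of 12 above 0, 0 called). No marker of these lists was at 0 in all libraries, and their part in the member levels was not tested.

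The members were also counted nucleus by nucleus, as the share of nuclei with at least 1 UMI after thinning each nucleus to 1000 UMIs. Thinning kept 1115 and 1941 adipocyte-like nuclei labelled knockout, against 2252 and 618 labelled WT, and left out 101 and 110, against 209 and 49. Mgll was found in 43.8% (95% exact binomial interval 40.8 to 46.7) and 36.1% (33.9 to 38.3) of nuclei labelled knockout, against 20.7% (19.1 to 22.5) and 18.0% (15 to 21.2) labelled WT. Plin1 was found in 44.2% and 60.9% labelled knockout, against 29.1% and 29.8% labelled WT. For both genes the shares of the libraries labelled knockout lay above those of the libraries labelled WT. The unthinned shares were 56.1% and 69.1% against 34.6% and 29.1% for Mgll, and 57.8% and 88.3% against 46.7% and 48.0% for Plin1. The intervals cover counting error only, and differences between libraries in these shares were not tested.

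G0s2 was found in 15.5% and 26.0% of thinned adipocyte-like nuclei labelled knockout, against 4.8% and 13.1% labelled WT (unthinned 19.7% and 53.4% against 8.17% and 18.6%). Lipe was found in 59.3% and 65.9% labelled knockout, against 63.0% and 59.4% labelled WT, and the shares of labelled WT lay within those of labelled knockout. T or NK-like nuclei, which should lack adipocyte genes such as Plin1, were counted for comparison. As a percent of the adipocyte-like level, Mgll stood there at 8.50% to 18.8% and Adipoq at 6.18% to 12.7%. Mgll lay above Adipoq in each library, so its shares there are not shown to be background. At 1000 UMIs, 2.25% and 5.74% of T or NK-like nuclei labelled knockout had a UMI of Plin1, against 1.37% and 1.12% labelled WT, and 5.41% and 4.39% had one of Mgll, against 2.74% and 4.47%. Their median depth before thinning was 751 and 1523 UMIs labelled knockout, against 756 and 718 UMIs labelled WT, so that 1087 and 408, against 1975 and 682, of these nuclei were left out. A thinned adipocyte-like nucleus held on average 2.77 and 3.44 of the 10 members labelled knockout, against 2.42 in each library labelled WT, and a T or NK-like nucleus 0.284 and 0.390, against 0.247 and 0.151.

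**Figure D3:**
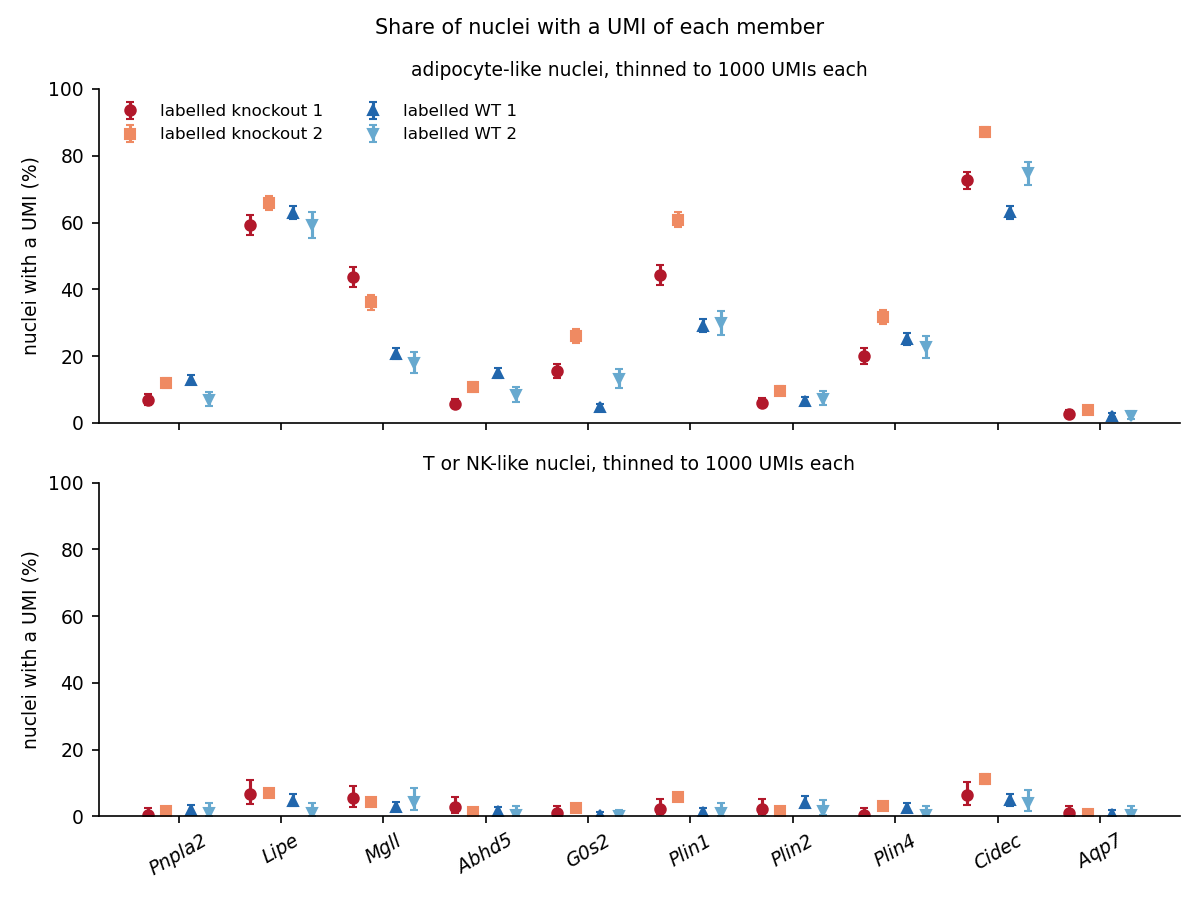
Share of nuclei with at least 1 UMI of each member after thinning to 1000 UMIs per nucleus, for adipocyte-like nuclei (above) and T or NK-like nuclei (below), with 1 point per library and 95% exact binomial intervals. Mgll and Plin1 have higher shares in both libraries labelled knockout, and no share in T or NK-like nuclei exceeds 11.2%.

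Summed over all nuclei, 5 members were higher without overlap between the groups, where 8.90% of all 28075 genes were. G0s2 had 60.1 and 123 CPM in the libraries labelled knockout, against 20.3 and 40.9 in those labelled WT (log2 1.70, SE 0.46, adjusted p = 0.178). Plin1 had 163 and 367 CPM labelled knockout, against 121 and 84.1 labelled WT (log2 1.41, SE 0.50), and Mgll 250 and 229 against 153 and 103 (log2 0.87, SE 0.50). Cidec (471 and 1017 against 422 and 447 CPM) and Aqp7 (19.1 and 18.7 against 11.2 and 12.8) completed the set. The groups of Lipe, Pnpla2, Abhd5, Plin2 and Plin4 overlapped.

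In the same sums, adipocyte markers had 8640 and 19033 CPM labelled knockout, against 11779 and 6599 labelled WT, with 11 of 12 above 0 and 1 called. B cell markers had 492 and 1004 CPM labelled knockout, against 412 and 406 labelled WT (8 of 8 above 0, 0 called), and plasma cell markers 111 and 541 against 16.1 and 28.5 (5 of 6 above 0, 2 called). None of these markers was at 0 in all libraries, and their part in the differences of the members was not tested.

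No member was called over all nuclei by edgeR or DESeq2, where edgeR called 0.103% of all genes, and 2 members (G0s2 and Plin1) had an unadjusted p under 0.05, as did 1.18% of all genes. The median log2 difference was 0.55 over the members and 0.020 over all genes. Adipocyte-like nuclei made up 10.1% and 12.9% of the nuclei labelled knockout, against 15.8% and 10.0% of those labelled WT, and in such sums fewer nuclei of a type and less RNA per nucleus cannot be told apart. Together the members took 0.149% and 0.258% of all UMIs labelled knockout, against 0.150% and 0.111% labelled WT. Without labelled knockout 2 the log2 difference was 0.84 for G0s2, 0.45 for Plin1 and -0.071 for Cidec.

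Across cell classes the members fell into different patterns, described here without a test because the classes come from the same nuclei. Adipocyte-like nuclei gave 67% to 87.8% of the Cidec UMIs of a library, 62.0% to 83.8% of the Plin1 UMIs, 58.0% to 79.2% of the Lipe UMIs and 55.8% to 79.9% of the Plin4 UMIs. The range of Lipe over the 4 adipocyte-like sums (1102 to 1293 CPM) lay wholly above that of the next set, the unnamed cluster 2 (495 to 802), which lay above that of vascular endothelial-like nuclei (117 to 258). Cidec and Plin4 were ordered the same way at the top, with adipocyte-like nuclei clear of cluster 2 and cluster 2 clear of the unnamed cluster 3, and so was Plin1 except that its adipocyte-like range (395 to 1094) overlapped that of cluster 2 (208 to 450). Below these sets the neighbouring ranges of these 4 genes overlapped.

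Levels outside adipocyte-like nuclei were read beside Adipoq, whose transcripts in other nuclei can come from free RNA. In progenitor-like nuclei, the stromal cells that can become adipocytes, Adipoq stood at 6.29% to 9.61% of its adipocyte-like level in the same library, Cidec at 2.17% to 6.04%, Plin1 at 0.80% to 6.83% and Lipe at 2.05% to 8.19%. Relative to adipocyte-like nuclei, Cidec and Plin1 lay below the percentage of Adipoq there in 4 of 4 libraries. Lipe lay below it in 3 of 4, the exception being labelled WT 1 (6.58%, against 6.29% for Adipoq). Whether progenitor-like nuclei express these genes or hold free RNA was not tested. In macrophage-like nuclei Cidec stood at 0.90% to 4.3%, Plin1 at 1.66% to 4.79%, Lipe at 1.90% to 8.61% and Adipoq at 2.77% to 10.6%. Plin1 lay below Adipoq in 4 of 4 libraries, whereas Lipe (7.52%) and Cidec (3.63%) lay above it (2.77%) in labelled knockout 1 and below it in the other 3. Adipoq had only 2 and 93 UMIs in macrophage-like nuclei labelled knockout, against 16 and 4 labelled WT. G0s2, at 5.54% to 24.7% in progenitor-like nuclei, lay above Adipoq in 3 of 4 libraries, the exception being labelled knockout 1.

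Plin2 did not follow adipocytes. It had 132 and 269 CPM in macrophage-like nuclei labelled knockout, against 239 and 112 labelled WT, which was 132% to 283% of the adipocyte-like level of the same library and higher in 4 of 4 libraries. Alveolar epithelial-like nuclei, the milk-protein cells of the mammary gland that lies in this fat pad, had 193 and 242 CPM of Plin2 labelled knockout, against 484 and 80.4 labelled WT. Labelled WT 1 was far above the others there and labelled WT 2 was the lowest, at 94.8% of its adipocyte-like level. Progenitor-like nuclei had 49.2% to 131% of the adipocyte-like level of Plin2, and vascular endothelial-like nuclei 48.9% to 128%. Only 13.3% to 32.0% of the Plin2 UMIs of a library lay in adipocyte-like nuclei.

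Mgll and Aqp7 were highest in vascular endothelial-like nuclei. Mgll had 937 and 770 CPM there in the libraries labelled knockout, against 441 and 311 in those labelled WT, which was 131% to 162% of the adipocyte-like level and above it in 4 of 4 libraries, while Adipoq stood at 12.7% to 30.1%. Aqp7 had 135 and 50.7 CPM there labelled knockout, against 49.9 and 41.5 labelled WT, from 23 and 29 UMIs against 18 and 6 UMIs. That range (41.5 to 135) lay above the next set, cluster 2 (24.0 to 39.7). At 1000 UMIs, 43.8% and 37.4% of vascular endothelial-like nuclei labelled knockout had a UMI of Mgll, against 23.4% and 24.6% labelled WT, from 64 and 222 nuclei deep enough against 145 and 69. The mean order of Mgll ran from vascular endothelial-like through adipocyte-like nuclei and cluster 2 to alveolar epithelial-like nuclei, with overlapping ranges at each step.

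Pnpla2 and Abhd5 were highest in adipocyte-like nuclei but less sharply so. Pnpla2 stood at 47.8% to 94.2% of its adipocyte-like level in vascular endothelial-like nuclei and at 15.2% to 32.8% in alveolar epithelial-like nuclei, where Adipoq stood at 2.54% to 6.48%. Abhd5 stood at 14.2% to 36.4% in alveolar epithelial-like and at 14.1% to 55.5% in luminal epithelial-like nuclei, where Adipoq stood at 0.80% to 5.89%. In both epithelial classes each gene exceeded Adipoq in 4 of 4 libraries. In labelled WT 2, however, Adipoq had only 3 UMIs in alveolar epithelial-like and 1 UMI in luminal epithelial-like nuclei. Cluster 2, which is low in depth (median 663 UMIs) and has Tspan18 and Tusc5 among its leading genes, had 1 adipocyte and 1 brown adipocyte marker among its 100 leading genes, too few for a name. It held the members at medians of 40.9% to 98.7% of the adipocyte-like level and Adipoq at 75.7%.

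**Figure D4:**
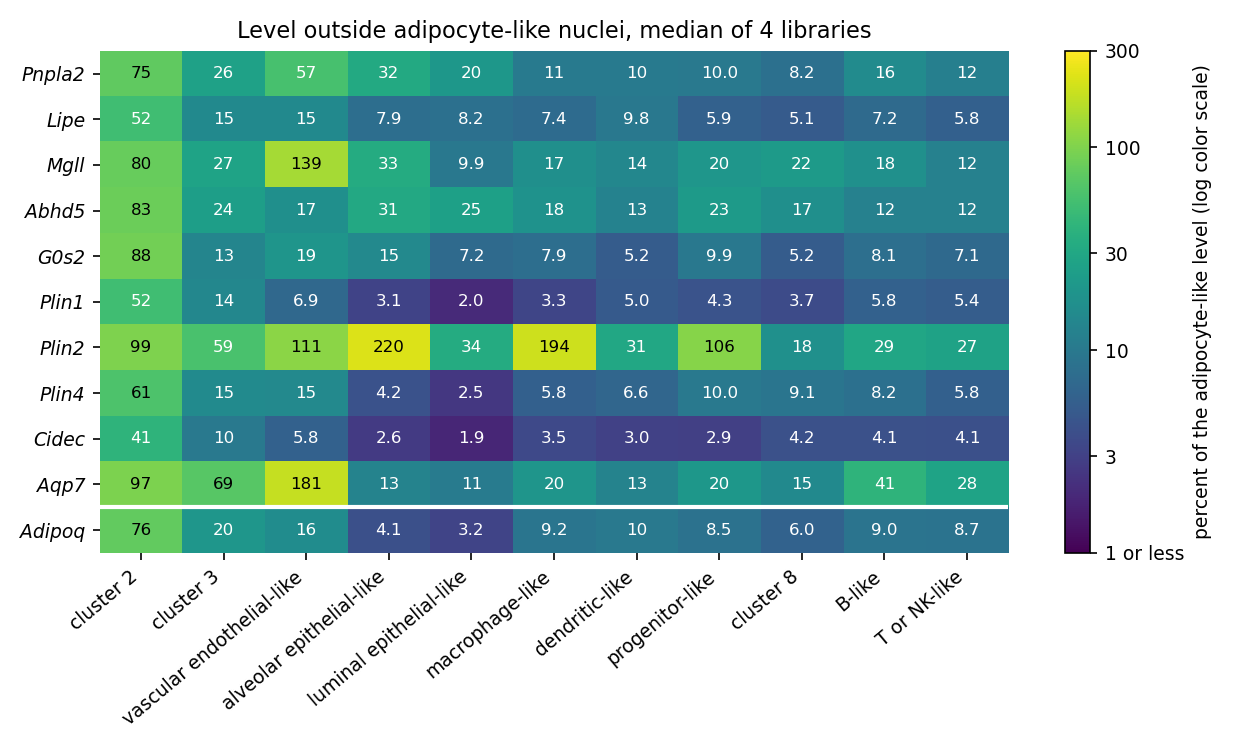
Level of each member, and of Adipoq for comparison, in each class or cluster as a percent of its level in adipocyte-like nuclei of the same library (median of 4 libraries, log color scale). Plin2 exceeds 100% in alveolar epithelial-like, macrophage-like, vascular endothelial-like and progenitor-like nuclei, and Mgll and Aqp7 in vascular endothelial-like nuclei.

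The mean profile of the members over 48 sums (12 classes or clusters in 4 libraries) was most like that of Acsl1, a fatty acid activating enzyme of adipocytes (r = 0.96), among the 8745 genes compared. Gm16168 (r = 0.95), Pck1, an enzyme of glyceroneogenesis (r = 0.94), Art3 (r = 0.93) and Prkar2b, a regulatory subunit of protein kinase A (r = 0.93), came next. Among the members themselves r ran from 0.93 for Cidec, 0.92 for Plin1, Lipe and Plin4, and 0.85 for G0s2 down to 0.83 for Pnpla2, 0.82 for Mgll, 0.70 for Abhd5 and 0.48 for Plin2. The mean profile includes the member it is compared with, so these values are partly fixed in advance and do not measure how alike the members are. Aqp7 lay under the mean level of 20 CPM needed. The sums of a library share its depth and its free RNA.

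In progenitor-like nuclei 0 of the 9 members tested were called by edgeR or DESeq2, where 0.0719% of 12512 genes were called by edgeR. Plin1 had 22.7 and 74.7 CPM labelled knockout, against 19.4 and 3.38 labelled WT (log2 1.99, SE 0.65, adjusted p = 0.822), and was the member whose groups did not overlap, beside 17.2% of all genes that were higher without overlap. Plin1 and Cidec had an unadjusted p under 0.05, as did 3.64% of all genes. Cidec had 49.5 and 187 CPM labelled knockout, against 48.3 and 50.7 labelled WT (log2 1.27, SE 0.49). Without labelled knockout 1 both were called, and Plin1 also without labelled WT 1. Adipocyte markers moved with them, with 11 of 11 tested above 0, sums of 2734 and 5250 against 3831 and 1988 CPM, none of the 12 at 0 in all libraries, and Adipoq at 25.4 and 50.5 against 12.4 and 10.1. Mgll had 53.5 and 72.8 CPM labelled knockout, against 71.2 and 84.6 labelled WT (log2 -0.33, SE 0.32).

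**Figure D5:**
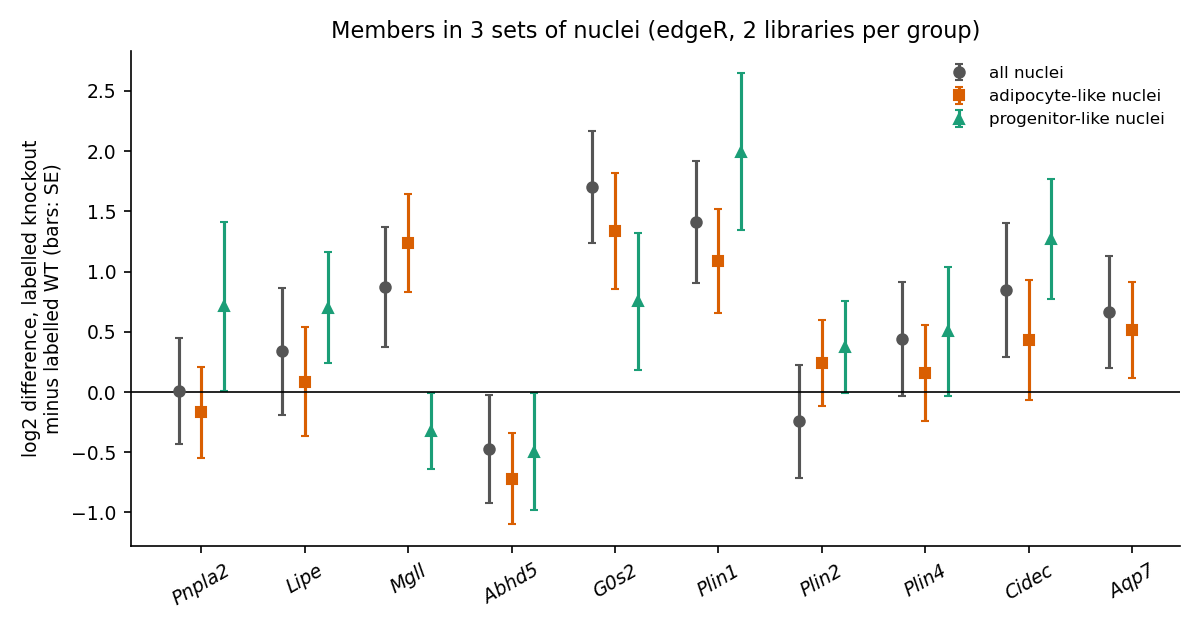
Log2 difference (labelled knockout minus labelled WT) of each member with its SE in all nuclei, adipocyte-like nuclei and progenitor-like nuclei, 2 libraries per group. G0s2 and Plin1 lie above 0 in all 3 sets, Abhd5 lies below 0 in all 3, and Mgll lies above 0 in adipocyte-like nuclei and below 0 in progenitor-like nuclei. Aqp7 was not tested in progenitor-like nuclei.

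Whether the difference between labels itself differed between adipocyte-like and progenitor-like nuclei was tested as an interaction. Mgll had the smallest p of the members, with an interaction of 1.57 (SE 0.34) on the log2 scale and an adjusted p of 0.0750, so that 0 of 10 members were called, where 0.190% of 15802 genes were. It was called in 4 of 7 alternatives, among them the fits without labelled knockout 2 and without labelled WT 1, with values between 1.26 and 1.99. G0s2 followed at 0.97 (SE 0.44, adjusted p = 0.767), and these 2 members had an unadjusted p under 0.05, as did 6.19% of all genes. For limma-voom the count of members called was 0 too.

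Over the other 10 classes and clusters, 87 tests of members gave 3 calls, all higher. In 8 of them no member was called by edgeR and 18 of 68 tests (26.5%) had an unadjusted p under 0.05, against 2.18% of 94426 tests over all genes, or 1.21% to 6.44% by class (no other tool was run there). Adipocyte markers had one in 19 of 88 tests in the same 8 sets, all higher. These tests share the same 4 libraries, and the part of free adipocyte RNA in them was not tested. Of all genes edgeR called 0.0397% in B-like, 0.0435% in T or NK-like, 0.0126% in alveolar epithelial-like, 0% in luminal epithelial-like, 0.018% in dendritic-like and 0.0111% in macrophage-like nuclei, 0.00889% in cluster 2 and 0.0282% in cluster 8. Cidec was called in vascular endothelial-like nuclei, where 1.55% of 5531 genes were called (0.452% higher). It had 164 and 231 CPM labelled knockout, against 61.0 and 41.5 labelled WT (log2 1.88, SE 0.42, adjusted p = 0.0151), from 28 and 132 UMIs against 22 and 6. That level was 8.32% and 7.44% of the adipocyte-like level labelled knockout, against 4.21% and 1.77% labelled WT, below Adipoq at 30.1% and 16.3%, against 12.7% and 15.7%. Adipocyte markers moved with it, with 11 of 11 tested above 0 and 1 called higher. Their sums were 13265 and 12884 CPM labelled knockout, against 10539 and 7511 labelled WT, and none of the 12 was at 0 in all libraries. The part of free adipocyte RNA in the Cidec call was not tested. The call was lost with DESeq2 (adjusted p = 0.0986), without labelled knockout 2, without labelled WT 1 and without labelled WT 2 (adjusted p = 0.0852 to 0.205).

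Mgll, which is high in vascular endothelial-like nuclei, had a log2 difference of 1.15 there (SE 0.34, adjusted p = 0.0875), with both libraries labelled knockout above both labelled WT and a call without labelled knockout 2 (adjusted p = 0.0088). Non-overlapping groups that were higher were found for 6 of the 9 members tested there, beside 20.6% of all genes. Pnpla2 was the 1 member lower without overlap, as were 17.8% of all genes, at 46.8 and 68.2 CPM labelled knockout, against 72.1 and 69.1 labelled WT (log2 -0.27, SE 0.48, adjusted p = 0.954). The makeup of this cluster differed between the groups. The 6 lymphatic endothelial markers gave 310 and 903 CPM labelled knockout, against 4138 and 2170 labelled WT (0 of 5 tested above 0, 2 called), whereas the 10 vascular markers gave 5198 and 7834 against 6329 and 7380. None of these markers was at 0 in all libraries, and the part of lymphatic nuclei in the Mgll difference was not tested.

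Cidec and Plin1 were called higher in cluster 3, an unnamed cluster of shallow nuclei (median 697 UMIs) with no marker among its leading genes, where 0.165% of 18778 genes were called (0.128% higher). Cidec had 240 and 368 CPM there labelled knockout, against 118 and 88.8 labelled WT (log2 1.63, SE 0.23, adjusted p = 0.0044). Plin1 had 114 and 146 CPM labelled knockout, against 59.0 and 26.6 labelled WT (log2 1.79, SE 0.30, adjusted p = 0.0157). Both calls were kept in DESeq2 and without each library in turn. Adipoq had 66.4 and 96.6 CPM there labelled knockout, against 28.7 and 28.5 labelled WT. Of the adipocyte markers, 12 of 12 were above 0, 2 were called higher and 10 had an unadjusted p under 0.05 by edgeR. Their sums were 5115 and 7115 CPM labelled knockout, against 3664 and 2161 labelled WT, with none at 0 in all libraries. Relative to adipocyte-like nuclei, Cidec stood at 12.2% and 11.9%, against 8.14% and 3.80%, and Adipoq at 24.4% and 18.4%, against 14.6% and 21.7%. The part of free adipocyte RNA in the Cidec and Plin1 calls was not tested.

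Other genes of the pathway were tested in the same fits, from lists drawn up by function with earlier results of these data known. An excess of called genes in a list over the share of all genes is therefore no independent evidence. Of 16 tested genes of the hormonal control of lipolysis in adipocyte-like nuclei, 2 rose, where 0.273% of all genes were called higher and 0.267% lower. Adrb3, through which catecholamines start lipolysis in mouse adipocytes, had 872 and 897 CPM labelled knockout, against 250 and 187 labelled WT (log2 1.98, SE 0.43, adjusted p = 0.0080). Npr3, which clears the natriuretic peptides that stimulate lipolysis in human fat, had 296 and 443 CPM labelled knockout, against 35.9 and 95.4 labelled WT (log2 2.54, SE 0.43, adjusted p = 0.00034). The groups of both genes did not overlap.

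Of 11 tested lipases and lipase regulators outside the members, Pnpla3, a lipid droplet relative of Pnpla2, rose (387 and 552 CPM labelled knockout, against 89.0 and 190 labelled WT, log2 1.77, SE 0.41, adjusted p = 0.0200), and Pnpla7 had a log2 difference of -0.78 (SE 0.36, adjusted p = 0.939). None of the 11 tested lipid droplet proteins outside the members was called by edgeR, and their log2 differences had a median of -0.14, with 4 of 11 above 0. Cidea, the relative of Cidec that marks brown and beige fat, had 33.2 and 9.18 CPM labelled knockout, against 38.9 and 110 labelled WT (log2 -1.92, SE 0.54, adjusted p = 0.216), and Tmem159 a log2 difference of 0.84 (SE 0.55).

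Of 11 tested genes of glycerol and fatty acid handling 0 were called by edgeR, with 1 higher and 1 lower at an unadjusted p under 0.05. Dgat2, which makes triglyceride, had 414 and 411 CPM in adipocyte-like nuclei labelled knockout, against 126 and 180 labelled WT (log2 1.41, SE 0.39, adjusted p = 0.0869), and Gk5, a glycerol kinase relative, had 30.4 and 32.6 against 68.5 and 85.5 (log2 -1.29, SE 0.37, adjusted p = 0.112). Over all nuclei Adrb3 (log2 2.12, SE 0.51, adjusted p = 0.0327), Npr3 (log2 2.48, SE 0.48, adjusted p = 0.00064) and Pnpla3 (log2 2.01, SE 0.48, adjusted p = 0.0327) were the genes of these lists that rose. The others with the largest differences of their lists there were Ces1f (0.89), Fitm2 (0.69), Dgat2 (1.41) and Acsl1 (0.94) above 0 and Cidea (-0.79) below 0 on the log2 scale, and edgeR called none of these. In progenitor-like nuclei Adrb3 was the gene of these lists called higher, with 41.5 and 57.8 CPM labelled knockout, against 6.47 and 2.25 labelled WT (log2 3.33, SE 0.53, adjusted p = 0.0496 by edgeR). Its adipocyte-like levels were 872 and 897 CPM, against 250 and 187. As a percent of the adipocyte-like level, Adrb3 lay below Adipoq (9.34% and 9.61%, against 6.29% and 7.70%) in each library. Whether progenitor-like nuclei express Adrb3 was not tested. The part of free adipocyte RNA in this call was not tested. The others with the largest differences in progenitor-like nuclei were Pnpla3 (1.28), Ces1d (0.67), Fitm2 (0.52), Prkaca (1.31), Acsl1 (1.36) and Dgat2 (1.08) above 0 and Mettl7a1 (-0.35) below 0, none called by edgeR.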

How the data were processed

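Nuclei of 4 libraries were sequenced with the Singleron GEXSCOPE single-nucleus kit, per the labels' protocols. The deposited matrices hold whole UMI counts per gene and nucleus, not normalized by the authors. GRCm38 (mm10) and Seurat 4.3.0 are named in the submitters' processing notes, and no aligner is named in the labels or headers. Nuclei with at least 500 UMIs, 300 genes and at most 10% mitochondrial UMIs were kept. They were clustered with scanpy 1.11.5 (2000 variable genes without the members, 30 components, 15 neighbours, Leiden resolution 1). A cluster was named where at least 3 markers of a class were among its 100 leading genes and its own markers outnumbered another class's among the top 10. Scrublet marked 0 and 0 nuclei labelled knockout, against 3 and 0 labelled WT, and was not used to remove nuclei.

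Counts were summed per library and class. The sums were tested with edgeR 4.0.16 (quasi-likelihood, TMM scaling, low-count filter) in R 4.3.3, and p was adjusted by Benjamini-Hochberg over all genes with a threshold of 0.05. SE is that of the log2 difference. With 2 libraries a group, p-values measure the spread between these libraries. The titles name different mice, and whether mice were pooled is not stated. On simulated data, 91 of 100 genes changed 4-fold and 100 of 100 changed 8-fold were recovered in the adipocyte-like fit of 15624 genes, with 12 false calls. The changed genes were drawn only from those above a minimum level, so the shares do not cover genes of low count. Alternatives used DESeq2 1.42.0, limma 3.58.1, other filters and other sets of nuclei. Binomial intervals are exact and cover counting error only.

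The members and lists were chosen with earlier results of these data known. Every member is reported, and from each wider list the genes called and the 2 with the largest absolute log2 difference are named. A result that falls under this rule for the hormonal list is not reported here. Of 13 listed genes of glycerol and fatty acid handling 12 were found. Nearest profiles are the 5 genes with the highest Pearson r to the members' mean profile.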

Additional observations from a re-analysis of the deposited data

Results flagged for a closer look

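Abhd5 had a log2 difference (labelled knockout minus labelled WT) of 0.91 in macrophage-like nuclei, where both libraries labelled knockout lay above both labelled WT, and of -1.21 in cluster 2, where they lay below, a gap of 2.12. The macrophage-like values rest on few UMIs of Abhd5, 7 and 52 labelled knockout, against 8 and 5 labelled WT. The same gene had a log2 difference of -0.64 in the unnamed cluster 8, a gap of 1.55 to macrophage-like nuclei. Its UMIs in cluster 8 numbered 6 and 34 labelled knockout, against 25 and 13 labelled WT. Plin2 had a log2 difference of 0.51 in vascular endothelial-like nuclei and of -0.82 in T or NK-like nuclei, with groups that did not overlap in either set, a gap of 1.33. Its UMIs in vascular endothelial-like nuclei numbered 18 and 68 labelled knockout, against 37 and 6 labelled WT. In T or NK-like nuclei they numbered 15 and 67, against 67 and 23. The pairs were picked by scanning all members and sets of nuclei for groups that did not overlap in opposite directions. In vascular endothelial-like nuclei 20.6% of all genes were higher without overlap. Such shares are not given for the other sets, so how often pairs like these arise among all genes cannot be read here. These differences between sets of nuclei were not tested.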

How the results depend on the processing

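Over all nuclei, where 29 genes were called, DESeq2 called 16, nuclei of at least 1000 UMIs and 500 genes gave 3, the replicate block 4 and leaving out a library 5 to 18. In adipocyte-like nuclei (89 genes) the replicate block gave 32, the marker gate 18 and leaving out a library 27 to 175, with 0 to 1 members. In progenitor-like nuclei (9 genes) DESeq2 gave 24, no low-count filter 36, the stricter nuclei 16, the replicate block 20, the crossed block 85 and leaving out a library 13 to 65. Members called there numbered 1 without the filter, 1 with the crossed block and 0 to 2 without a library. For the interaction (30 genes) limma-voom gave 11, no filter 102, the replicate block by class 135 and leaving out a library 44 to 129, with 1 member (Mgll) without the filter, 1 with the block by class and 0 to 1 without a library. Same-numbered libraries did not deviate together (correlations of -0.63, -0.39 and -0.30 in all, adipocyte-like and progenitor-like nuclei), and the main fits did not pair them. With 2 libraries a group the deviations mirror each other, so this value cannot decide whether the numbers mark pairs. The crossed block, chosen after seeing the data, called 39 genes over all nuclei and 89 in adipocyte-like nuclei. The causes of these changes were not tested. Over all nuclei the log2 difference of Pnpla2 turned to -0.041 without the filter and -0.094 in the stricter nuclei, and that of Plin2 to 0.046 with the replicate block and 0.035 with the crossed block. The marker gate, which took more nuclei than the adipocyte-like cluster, gave -0.29 for Lipe, -0.34 for Plin2, -0.23 for Plin4 and -0.0099 for Cidec. Leaving out a library turned the sign of several members. Over all nuclei the ranges were -0.71 to 1.29 for Pnpla2, -0.22 to 0.88 for Lipe, -1.05 to 0.33 for Abhd5, -0.99 to 1.11 for Plin2, -0.45 to 1.02 for Plin4 and -0.071 to 1.39 for Cidec. In adipocyte-like nuclei they were -0.69 to 0.52 for Pnpla2, -0.16 to 0.32 for Lipe, -0.19 to 0.58 for Plin2, -0.42 to 0.60 for Plin4 and -0.076 to 0.83 for Cidec. In progenitor-like nuclei they were -0.28 to 2.67 for Pnpla2, -0.997 to 0.29 for Abhd5, -0.13 to 1.23 for Plin2, -0.10 to 1.92 for Plin4, -0.089 to 1.90 for Cidec and -0.48 to 1.26 for G0s2. For the interaction they were -0.90 to 0.30 for Plin2, -1.59 to 0.21 for Plin4 and -0.998 to 0.11 for Cidec. Of the alternative values of the members, 129 of 140 in adipocyte-like nuclei and 96 of 110 over all nuclei kept direction and side of the threshold. With 2 libraries a group, changes of 4-fold or less may go uncalled: over all nuclei 67% of simulated 4-fold changes were recovered, with 8 false calls.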

Other observations

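Ratios of members within a library, chosen after their values were seen, are given without a test. In adipocyte-like nuclei the UMIs of G0s2 over those of Pnpla2, the lipase that its product inhibits, came to 2.45 and 2.75 in the libraries labelled knockout, against 0.316 and 2.36 in those labelled WT, so that labelled WT 1 stood apart. Plin1 over Abhd5, whose product perilipin 1 holds at the droplet, came to 9.72 and 9.46 labelled knockout, against 2.12 and 3.84 labelled WT. Mgll over Lipe came to 0.638 and 0.413 labelled knockout, against 0.241 and 0.215 labelled WT.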
